A study of Mus musculus with 12 samples.

Results

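The core circadian clock genes Clock, Arntl, Npas2, Per1, Per2, Per3, Cry1, Cry2, Nr1d1 and Nr1d2 held 36 of the 58558 chromatin accessibility peaks of mouse brown fat (BAT) and 35 of the 39558 peaks of inguinal white fat (iWAT). A peak was counted for one of these genes when the deposited table assigned it to that gene symbol, and all 10 genes had at least 1 peak in each tissue. Accessibility was read by ATAC-seq, in which a transposase cuts open DNA and the reads that fall in a region measure how open it is. The comparison was between AKO mice, in which the chromatin remodelling subunit BAF60a (gene Smarcd1) is deleted by Adiponectin-Cre, and flox mice, which carry the floxed BAF60a alleles only. Adiponectin-Cre acts in adipocytes, so the other cells of the tissue keep BAF60a. All mice were C57BL/6 and lived in 12 h of light and 12 h of darkness.

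Brown fat came from 3 flox and 3 AKO mice, each mouse a sample. The age of these mice is not given in the sources used here. Inguinal fat came from mice of 6 to 8 months whose chamber was cooled stepwise to 10 °C and held there for 7 more days. The pads of 6 mice per genotype were pooled, minced and split into 3 aliquots, so the spread among inguinal samples is that of aliquots of 1 pool and not of mice. The hour of dissection is not given in the sources used here, so the phase of the clock in either genotype is unknown. In bulk tissue, fewer cells of a type and less signal per cell cannot be told apart.

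CLOCK, or its paralog NPAS2, pairs with BMAL1, the product of Arntl, and this pair activates genes through E-box sequences. The Per and Cry genes are among its targets, and the PER and CRY proteins feed back to inhibit it. The nuclear receptors REV-ERBα and REV-ERBβ, encoded by Nr1d1 and Nr1d2, repress Arntl, Clock, Npas2 and Cry1 through retinoic acid-related orphan receptor elements (RREs). Output factors such as DBP, TEF and HLF act on D-boxes. In fat the clock is known for daily rhythms in lipid handling and heat production, and several of its genes peak at opposite times of day.

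The labelled tissues were checked against marker genes. All 6 adipocyte markers had a peak in each tissue, and all 7 brown adipocyte markers did so too, but Ucp1, Dio2 and Zic1 had no peak over their start sites in iWAT. None of the 4 lymphocyte markers had a peak in brown fat, and in iWAT only Ptprc, which all leukocytes express, had peaks, both lower in every AKO sample, with summed signals of 121 to 136 normalized reads in flox and 60.9 to 78.4 in AKO. The endothelial list, 3 of whose 4 genes had peaks in iWAT, summed to between 655 and 694 there in flox and between 527 and 603 in AKO. The iWAT sums of the fibroblast, macrophage, epithelial, Schwann and skeletal muscle lists overlapped between genotypes. For fibroblasts they ran from 915 to 1023 in flox and from 893 to 1060 in AKO. In brown fat the fibroblast sum ran from 1539 to 1645 in flox and from 1478 to 1536 in AKO. The epithelial sum there ran from 733 to 784 in flox and from 696 to 730 in AKO, so both were lower in AKO without overlap. The brown fat sums of the endothelial, macrophage, Schwann and skeletal muscle lists overlapped between genotypes. None of the 5 macrophage markers had a peak over its start site in either tissue. At the brown adipocyte markers, 30 of 76 brown fat peaks were lower in every AKO mouse than in every flox mouse and 0 were higher, where 8.84% of all brown fat peaks were lower in this way. Their summed signal ran from 20751 to 24471 normalized reads in flox and from 14234 to 15430.4 in AKO. The adipocyte markers had 37 brown fat peaks, 10 of them lower and 3 higher in every AKO mouse, and their summed signal ran from 18194 to 21900.1 in flox and from 12842 to 17844 in AKO, without overlap. In iWAT that sum ran from 3016 to 4060.1 in flox and from 3092 to 3331 in AKO, and the brown adipocyte sum from 1465 to 1641 in flox and from 1520.5 to 1671 in AKO. The part of cell composition in the clock gene values was not tested. Smarcd1 itself had a brown fat peak over its exon 5 with 136, 201 and 185 normalized reads in flox and 23.7, 57.9 and 26.9 in AKO, lower in every AKO mouse. Its adjusted p in limma was 0.269, the smallest of the brown fat table, and which exons are floxed is not given in the sources used here. In iWAT the table gave Smarcd1 a peak only over its start site, which does not check the deletion.

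Depth differed among samples. Reads in peaks came to between 6336670 and 27500738 in brown fat and between 4066720 and 6691161 in iWAT, and the files' values are reads after division by each sample's size factor, called normalized reads here. In brown fat the deepest sample, flox 1, and the shallowest, AKO 2, stood at the opposite ends of the first principal component (PC1), at scores of -98.2 and 112. This component held 55.6% of the variance. Its scores were -98.2, -41.8 and 14.6 in flox and -0.617, 112 and 13.5 in AKO, overlapping between genotypes but leaning lower in flox. As in the study's brown fat model, PC1 was a covariate in the brown fat fit reported here. It can therefore take up part of the difference between genotypes, and brown fat fold changes are adjusted for it unless given as without PC1. In iWAT the first component held 33.8% of the variance and separated the genotypes, with scores of -41.4 to -30.9 in flox and 29.4 to 37.8 in AKO, and it was not a covariate. The numbers of replicates allow an exact permutation test of 3 against 3 samples no p below 0.1, so the main test is limma, fitted across all peaks of a table on log2(normalized reads + 1) with Benjamini-Hochberg adjustment over all of them. Every fold change below is AKO against flox on that log2 scale, which understates changes at peaks with few reads, and a peak was called at an adjusted p under 0.1.

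Some of the DNA in these peaks is shown first because it holds the elements through which the loop is known to run. The letters searched on both strands were CACGTG for the E-box, CACGTT for the E′-box, TTATGTAA and TTACGTAA for the D-box and TGACGTCA for the CRE, besides the RRE and the glucocorticoid response element (GRE) by their consensus. Matches are printed in capitals, and 0 of the 45 matches in brown fat member peaks and 0 of the 34 in iWAT overlapped a match to another motif. Promoter windows run from 250 bases before to 50 after a start site in RefSeq, build GRCm38.p6, whose chromosomes are those of mm10, and are written on the gene's strand. These 4 promoters were picked for their matches. They hold a pair of E-type boxes (Cry1), an E-box (Per1), a pair of D-boxes (Per3) and the RRE just after an Arntl start. In the same order they lie at chr10:85185005-85185304, chr11:69098699-69098998, chr4:151044616-151044915 and chr7:113207261-113207560.
Cry1 promoter: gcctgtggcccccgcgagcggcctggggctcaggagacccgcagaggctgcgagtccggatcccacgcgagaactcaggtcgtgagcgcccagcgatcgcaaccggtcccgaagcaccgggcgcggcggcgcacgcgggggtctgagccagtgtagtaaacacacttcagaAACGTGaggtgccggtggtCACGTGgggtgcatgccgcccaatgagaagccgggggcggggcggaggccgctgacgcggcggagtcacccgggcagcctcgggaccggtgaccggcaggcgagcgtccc
Per1 promoter: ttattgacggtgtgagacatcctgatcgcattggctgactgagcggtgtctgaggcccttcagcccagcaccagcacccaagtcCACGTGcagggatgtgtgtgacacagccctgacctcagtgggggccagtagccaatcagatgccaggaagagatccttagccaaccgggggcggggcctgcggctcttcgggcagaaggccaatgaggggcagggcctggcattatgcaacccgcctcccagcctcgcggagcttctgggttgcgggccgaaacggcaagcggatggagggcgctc
Per3 promoter: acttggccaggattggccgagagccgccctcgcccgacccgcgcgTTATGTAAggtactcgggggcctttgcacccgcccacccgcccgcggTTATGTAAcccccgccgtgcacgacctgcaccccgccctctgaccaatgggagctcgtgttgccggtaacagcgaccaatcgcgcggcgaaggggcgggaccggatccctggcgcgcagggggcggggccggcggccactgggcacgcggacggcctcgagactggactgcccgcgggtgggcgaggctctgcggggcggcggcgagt
Arntl promoter: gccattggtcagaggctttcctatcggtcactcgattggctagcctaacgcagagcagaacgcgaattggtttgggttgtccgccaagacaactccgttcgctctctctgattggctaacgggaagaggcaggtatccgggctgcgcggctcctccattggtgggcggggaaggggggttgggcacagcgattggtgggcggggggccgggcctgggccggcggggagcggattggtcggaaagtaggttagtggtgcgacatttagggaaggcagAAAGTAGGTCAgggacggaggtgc

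Counted from 0 at the start-site base, the Cry1 E′-box began at -79 and its E-box at -60, the Per1 E-box at -166, the Per3 D-boxes at -205 and -158, and the Arntl RRE at 26. This Arntl start is base 113207511, and the window of the start at 113207465, from which Arntl distances are counted below, held no match. The windows of Clock, Npas2 and Nr1d2 and another Per1 window also held none. Those of Cry2 and Nr1d1 held an E′-box each, and Per2 had no window. Of all 32851 RefSeq promoter windows, 7.15% hold an E-box, 4.68% an E′-box, 1.06% a D-box and 0.384% an RRE.

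The 300 bases centred on 5 peaks away from these windows are shown because the comparisons below turn on them or because they hold paired elements. The Clock peak in intron 2 (chr5:76285594-76285893) had the smallest p of the brown fat members and no match to any of the letters. The Nr1d1 peak 8.1 kb upstream (chr11:98783300-98783599) had the smallest p of the iWAT members and holds an E-box. The Per1 peak 3.9 kb upstream (chr11:69094867-69095166) holds a pair of E-boxes, the Npas2 peak 1.3 kb upstream (chr1:39192728-39193027) a pair of RREs, and the Cry1 peak in intron 1 (chr10:85161775-85162074), found in brown fat only, a pair of RREs. All 5 are mm10 sequence of the plus strand.
Clock intron 2: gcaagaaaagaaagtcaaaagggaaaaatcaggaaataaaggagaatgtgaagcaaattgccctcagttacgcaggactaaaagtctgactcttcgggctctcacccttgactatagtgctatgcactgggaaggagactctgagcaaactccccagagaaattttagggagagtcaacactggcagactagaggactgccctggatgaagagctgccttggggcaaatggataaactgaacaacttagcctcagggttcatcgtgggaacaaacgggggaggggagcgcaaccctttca
Nr1d1 upstream: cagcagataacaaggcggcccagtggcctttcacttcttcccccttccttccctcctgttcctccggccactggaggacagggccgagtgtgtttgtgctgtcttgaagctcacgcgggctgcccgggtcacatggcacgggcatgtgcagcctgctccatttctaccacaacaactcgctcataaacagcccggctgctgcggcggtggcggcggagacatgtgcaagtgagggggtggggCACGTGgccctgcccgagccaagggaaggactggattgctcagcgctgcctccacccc
Per1 upstream: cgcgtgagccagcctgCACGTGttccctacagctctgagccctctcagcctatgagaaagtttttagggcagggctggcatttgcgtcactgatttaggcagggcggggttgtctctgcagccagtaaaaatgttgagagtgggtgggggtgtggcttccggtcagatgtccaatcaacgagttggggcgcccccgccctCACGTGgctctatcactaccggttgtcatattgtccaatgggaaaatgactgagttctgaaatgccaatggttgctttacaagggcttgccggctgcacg
Npas2 upstream: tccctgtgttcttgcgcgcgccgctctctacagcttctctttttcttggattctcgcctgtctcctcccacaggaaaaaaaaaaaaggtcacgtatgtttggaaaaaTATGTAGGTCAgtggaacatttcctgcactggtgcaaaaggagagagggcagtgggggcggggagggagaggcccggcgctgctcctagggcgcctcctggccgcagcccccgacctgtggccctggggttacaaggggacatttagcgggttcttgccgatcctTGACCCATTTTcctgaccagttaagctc
Cry1 intron 1: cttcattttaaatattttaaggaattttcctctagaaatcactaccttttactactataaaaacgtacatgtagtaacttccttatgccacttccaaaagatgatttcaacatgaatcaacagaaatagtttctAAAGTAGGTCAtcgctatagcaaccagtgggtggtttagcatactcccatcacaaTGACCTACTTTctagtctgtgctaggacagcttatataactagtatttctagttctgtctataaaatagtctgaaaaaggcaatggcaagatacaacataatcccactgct

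Across whole member peaks, the brown fat set held 19 E-boxes in 11 of 36 peaks, 10 E′-boxes in 8, 6 D-boxes in 4, 9 RREs in 7 and 1 CRE, and the iWAT set held 15 E-boxes in 9 of 35 peaks, 7 E′-boxes in 7, 6 D-boxes in 4, 5 RREs in 4 and 1 CRE. No GRE was found in either. In windows of equal length, the central 300 bases, an E-box lay in 22.2% of brown fat member peaks and 5.76% of all brown fat peaks, and an RRE in 11.1% and 0.70%, while a D-box lay in 0 of 36 member peaks and 1.45% of all, and a CRE in 0 and 0.693%. An E′-box lay in 11.1% of member peaks and 4.38% of all. In iWAT an E-box lay in 7 of 35 member peaks and 6.09% of all peaks, an RRE in 5.71% and 0.521%, a D-box in 5.71% and 1.27%, a CRE in 2.86% and 0.966%, and an E′-box in 17.1% and 4.48%. These are letter matches and not measured binding, and most member regions of one tissue overlap those of the other. The E-boxes fell in peaks of Cry1, Cry2, Per1, Nr1d1, Nr1d2 and Arntl, and the RREs in peaks of Arntl, Clock and Npas2 in both tissues and of Cry1 and Nr1d1 in brown fat.

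Of the 36 brown fat peaks, 27 (75.0%) overlapped an iWAT peak by 1 base or more, as did 53.8% of all brown fat peaks. Of the 35 iWAT peaks, 31 (88.6%) overlapped a brown fat peak, as did 80.5% of all iWAT peaks. In brown fat Arntl had the most peaks, 8, followed by Cry2 with 5, Nr1d1, Per1 and Per2 with 4 each, Npas2 and Nr1d2 with 3 each, Clock and Cry1 with 2 each and Per3 with 1. In iWAT Arntl and Cry2 had 7 each, Nr1d1 and Per2 5 each, Per1 4, Npas2 and Nr1d2 2 each and Clock, Cry1 and Per3 1 each. Peaks of brown fat with no partner lay in the introns of Arntl, Clock, Cry1 and Npas2, 1.9 kb before Nr1d1 and 67.8 kb past the start of Nr1d2. Those of iWAT with no partner lay before Arntl, in 3 places between -9959 and -21745 bp from its start, and 8.1 kb past the start of Nr1d1. The tables were called and normalized separately, so a peak in 1 table only is not a tested difference between tissues.

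**Figure D1:**
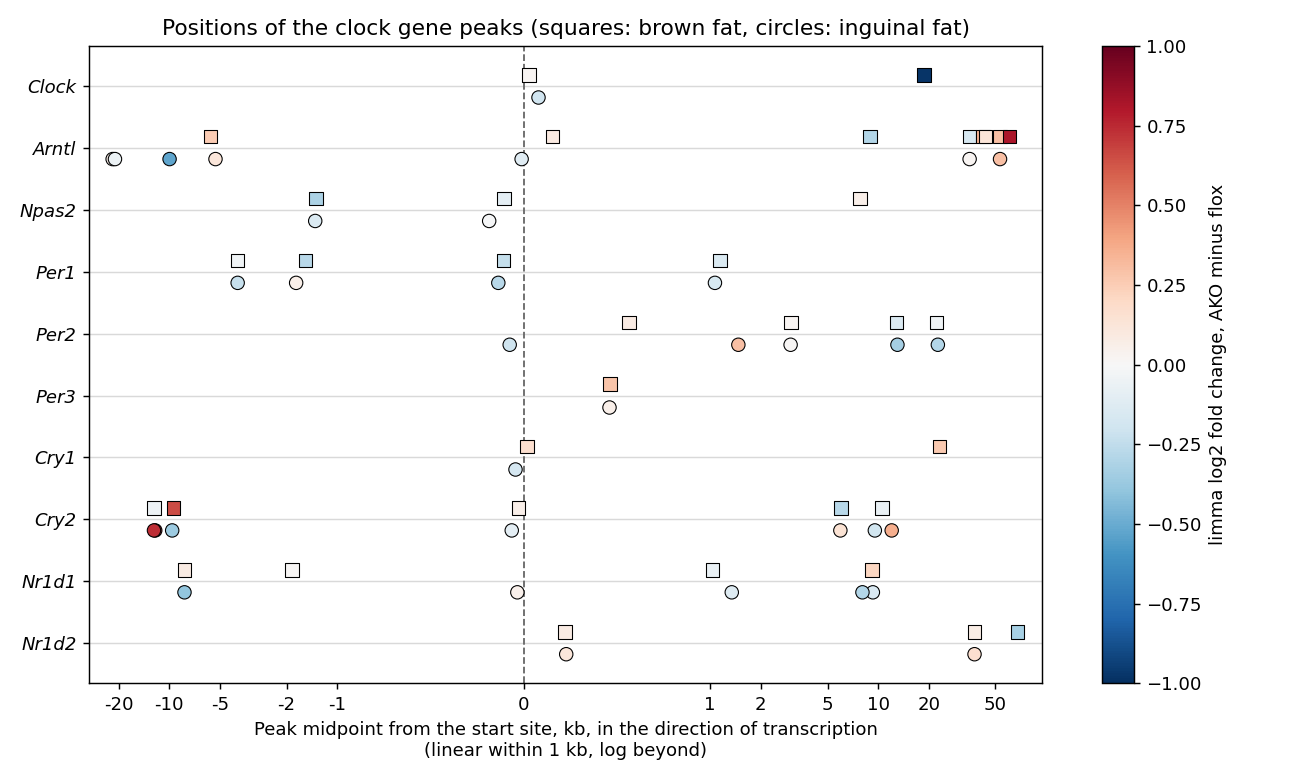
Map of all 36 brown fat (squares) and 35 iWAT (circles) clock gene peaks, each placed by the distance of its midpoint from the start site in kb (linear within 1 kb, log beyond) and coloured by its limma log2 fold change, AKO minus flox. Most squares have a circle beneath them, the exceptions being mainly in introns of Arntl, Clock, Cry1 and Npas2 in brown fat and upstream of Arntl in iWAT.

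Among the peaks over start sites in flox brown fat, Nr1d2 had the highest signal for its width, 1524 ± 222 normalized reads per kb (SD, n = 3), and Npas2 the lowest, 149.6 ± 39.1. Between them came Per1, Cry2, Nr1d1, Cry1, Per2, Clock, Per3 and Arntl in that order, from 1009 to 511 reads per kb. The ranges of the flox mice overlapped between neighbours in this order except below Nr1d2, between Nr1d1 and Cry1, and above Npas2. In flox iWAT, Nr1d2 was again the highest, at 667 ± 14.5 per kb, and the Npas2 peak nearest its start the lowest, at 117 ± 42.5. Cry2, Per1, Arntl, Per2, Cry1, Nr1d1, Per3 and Clock lay between, with no overlap of neighbours between Nr1d2 and Cry2, Per1 and Arntl, Per2 and Cry1, Per3 and Clock, and Clock and Npas2. The width is set by the peak caller, and the 2 scales are not comparable between tissues.

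In brown fat no clock gene peak passed the test. With limma 0 of 36 member peaks were called, beside 0.0% of all 58558 peaks lower and 0.0% higher, and the smallest adjusted p of a member was 0.441. Count models on the recovered reads called some peaks of the table but none of these: DESeq2 called 0.217% of all peaks lower and 0.0803% higher, and edgeR 0.114% and 0.029%. DESeq2 gave no adjusted p to Clock intron 2 and some other members with few reads, so it could not call them. At an unadjusted p under 0.05, limma had 1 member peak lower (Clock intron 2) and 1 higher (Cry2, 9.5 kb upstream), beside 5.59% and 3.46% of all peaks. Every AKO mouse lay below every flox mouse at 6 of 36 member peaks (16.7%) and above at 1 (2.78%), where 8.84% and 8.77% of all brown fat peaks did so. The 6 were 3 of the 4 peaks of Per1, the peak 1.3 kb before Npas2, the Nr1d1 start site and intron 1 of Cry2, and the 1 was in intron 2 of Arntl. Without AKO 2 the counts were 8 lower and 2 higher, beside 12.9% and 11.4% of all peaks, and without flox 1 they were 7 and 2, beside 12.5% and 11.5%. Over the 10 start sites the 95% intervals of the fold change reached from -0.70 at Per1 to 0.77 at Per3.

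In iWAT also, no clock gene peak passed the test. With limma 0 of 35 were called, beside 0.0% of all 39558 peaks lower and 0.0% higher, and the smallest adjusted p of a member was 0.234. Leaving out any 1 sample gave 0 called member peaks in limma in either tissue. DESeq2, which called 0.569% of all peaks lower and 0.493% higher, called none of them, while edgeR, which called 2.52% lower and 2.15% higher, called 1 lower, the Nr1d1 peak 8.1 kb upstream. Some members with few reads, such as the peak 12.1 kb before Cry2, got no adjusted p from DESeq2 and could not be called by it. At an unadjusted p under 0.05, limma had 2 members lower and 2 higher, beside 7.42% and 7.61% of all peaks. Every AKO aliquot lay below every flox aliquot at 7 of 35 member peaks and above at 5 (14.3%), where 10.3% and 10.6% of all iWAT peaks did so. The 7 were the start sites of Clock, Per1 and Cry1, intron 9 of Per2, exon 3 of Cry2, 9.6 kb before Cry2 and 8.1 kb before Nr1d1, and the 5 were the start site of Nr1d2, exon 5 of Cry2, 12.1 kb before Cry2, 5.3 kb before Arntl and its intron 2.

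**Figure D2:**
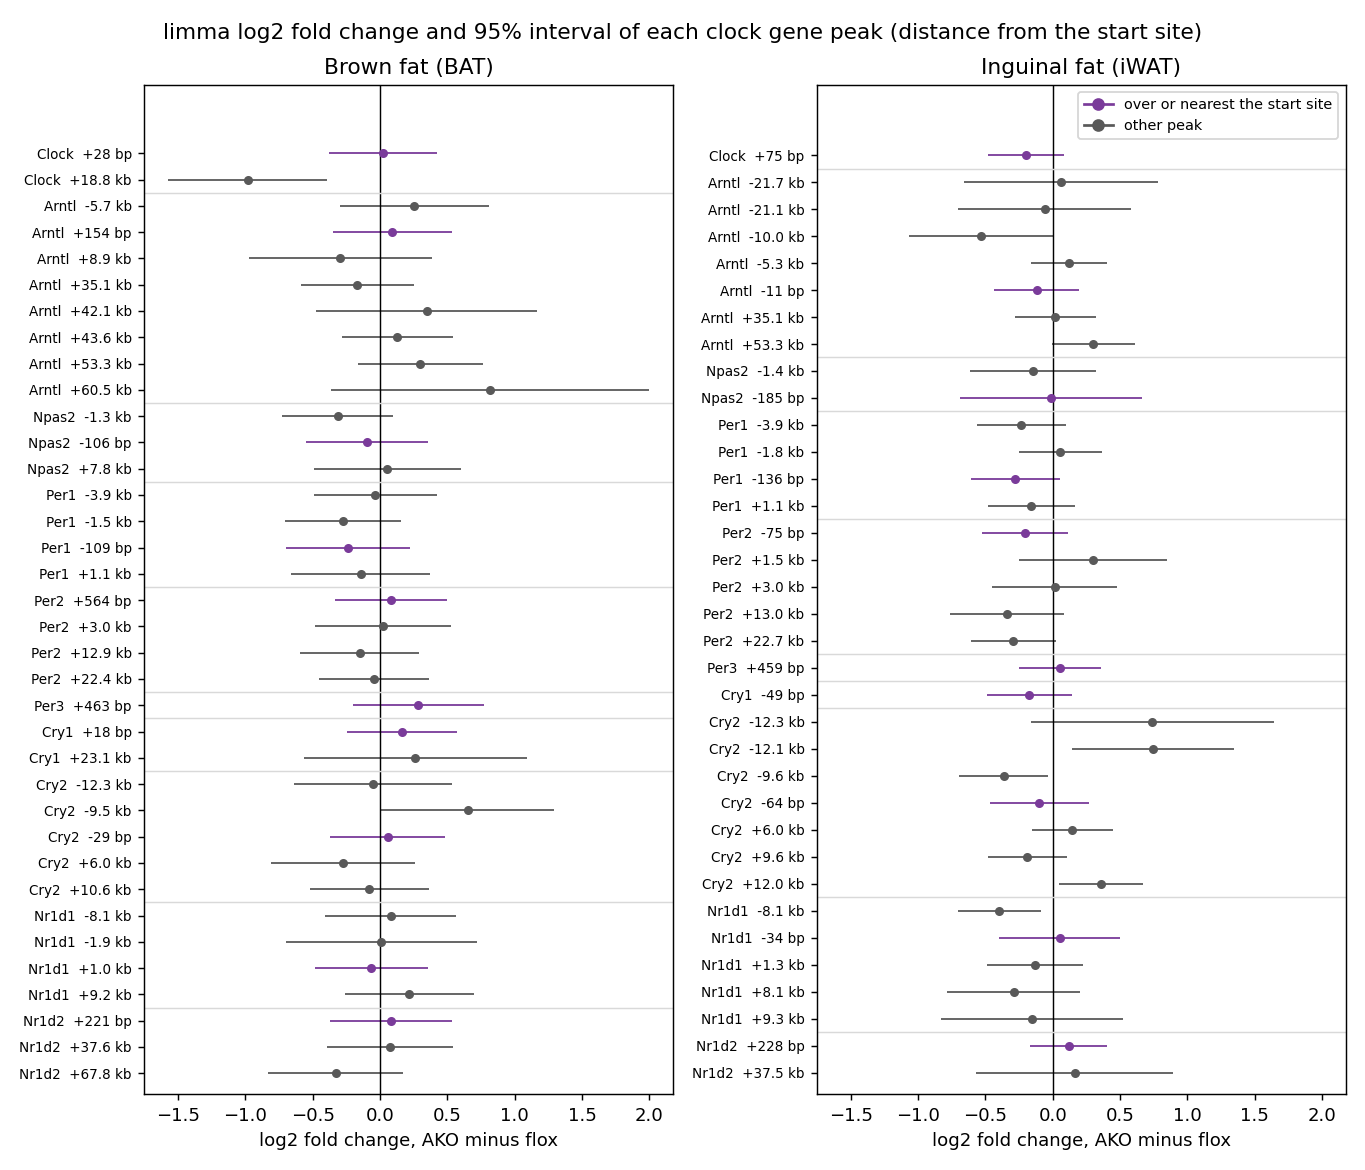
limma log2 fold change, AKO minus flox, with its 95% interval for each member peak in brown fat (left) and iWAT (right), grouped by gene and ordered by distance from the start site, with the peak over or nearest the start site in purple. The intervals of 34 of 36 brown fat peaks and 31 of 35 iWAT peaks include 0, and the widest belong to peaks with few reads such as Arntl +60.5 kb.

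Clock and its partners are the activators of the loop. Over the Clock start site (chr5:76303673-76305367), a region that also holds the antisense gene Gm7467, brown fat had 1083, 938 and 865 normalized reads in flox and 883, 724 and 887 in AKO. The groups overlapped, with AKO 2 the lowest, and the fold change was 0.02 ± 0.17 (SE), adjusted p = 0.98. In intron 2 of Clock (chr5:76285610-76285879) the values were 53.8, 85.7 and 67.3 normalized reads in flox and 35.1, 56 and 41.3 in AKO. AKO 1 and AKO 3 lay below all flox mice and AKO 2 just above flox 1, and the fold change of -0.98 ± 0.25 (SE), adjusted p = 0.441, had a 95% interval of -1.57 to -0.39 and ran from -1.36 to -0.80 with each mouse left out in turn. Without PC1 it was -0.63, with a 95% interval of -1.20 to -0.07. No iWAT peak covered that intron. Over the iWAT start site (chr5:76303673-76305274) the values were 381, 371 and 374 normalized reads in flox and 343, 319.7 and 318 in AKO. The aliquots did not overlap, AKO being lower, and the fold change was -0.20 ± 0.12 (SE), adjusted p = 0.481.

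Arntl, which encodes BMAL1, differed little at its start site in either tissue. In brown fat (chr7:113206919-113208319) it had 773, 729 and 645 normalized reads in flox and 670.1, 701 and 769 in AKO, overlapping groups with a fold change of 0.09 ± 0.19 (SE), adjusted p = 0.905. In iWAT (chr7:113206903-113208006) it had 535, 478 and 500.1 normalized reads in flox and 496, 418 and 481 in AKO, again overlapping, with a fold change of -0.12 ± 0.13 (SE), adjusted p = 0.719. The other 7 brown fat peaks ran from a fold change of -0.29 in intron 1 to 0.82 at 60.5 kb, where the reads were few and scattered, with 74.7, 21.4 and 36.2 normalized reads in flox and 60.8, 52.1 and 47 in AKO and an adjusted p of 0.664. The brown fat peak at 43.6 kb, which holds an RRE, was the only member peak above flox in every AKO mouse, with 86.7, 87.9 and 88 normalized reads in flox and 101, 96.6 and 91.1 in AKO and a fold change of 0.13 ± 0.17 (SE), adjusted p = 0.847. The iWAT peak of Arntl with the smallest p lay upstream, at -9959 bp (chr7:113197261-113197752), with 42.8, 66.7 and 57.7 normalized reads in flox and 43.8, 28.5 and 42.8 in AKO and a fold change of -0.53 ± 0.23 (SE), adjusted p = 0.339. AKO 1 and AKO 3 were at the level of flox 1 there, so the groups overlapped. The peak at 53.3 kb in intron 2 lay higher in every AKO aliquot, with 168, 199 and 189 normalized reads in flox and 234, 233 and 218 in AKO and a fold change of 0.30 ± 0.13 (SE), adjusted p = 0.34. Its brown fat partner had a fold change of 0.30, which was 0.02 without PC1, and overlapping groups.

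Npas2, the paralog of Clock, had the weakest start-site peak of the 10 genes. In brown fat (chr1:39193671-39194542) the values were 107, 115 and 169 normalized reads in flox and 134, 238 and 161 in AKO, with AKO 2 the highest and the groups overlapping. The fold change was -0.10 ± 0.19 (SE), adjusted p = 0.901, and without PC1 it was 0.43, so its sign rests on the covariate. The upstream peak with 2 RREs (chr1:39192640-39193117) was lower in every AKO mouse, with 125, 129 and 131 normalized reads in flox and 109, 116 and 101 in AKO and a fold change of -0.31 ± 0.17 (SE), adjusted p = 0.635. In iWAT the groups overlapped at both peaks. The peak nearest the start (chr1:39193862-39194193) had 42.8, 23.3 and 50.8 normalized reads in flox and 39.2, 42.2 and 29.9 in AKO and a fold change of -0.01 ± 0.29 (SE), adjusted p = 0.989, and the upstream one (chr1:39192664-39193059) had 52, 45.6 and 74.9 normalized reads in flox and 48.4, 54.8 and 49.2 in AKO and a fold change of -0.15 ± 0.20 (SE), adjusted p = 0.77.

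**Figure D3:**
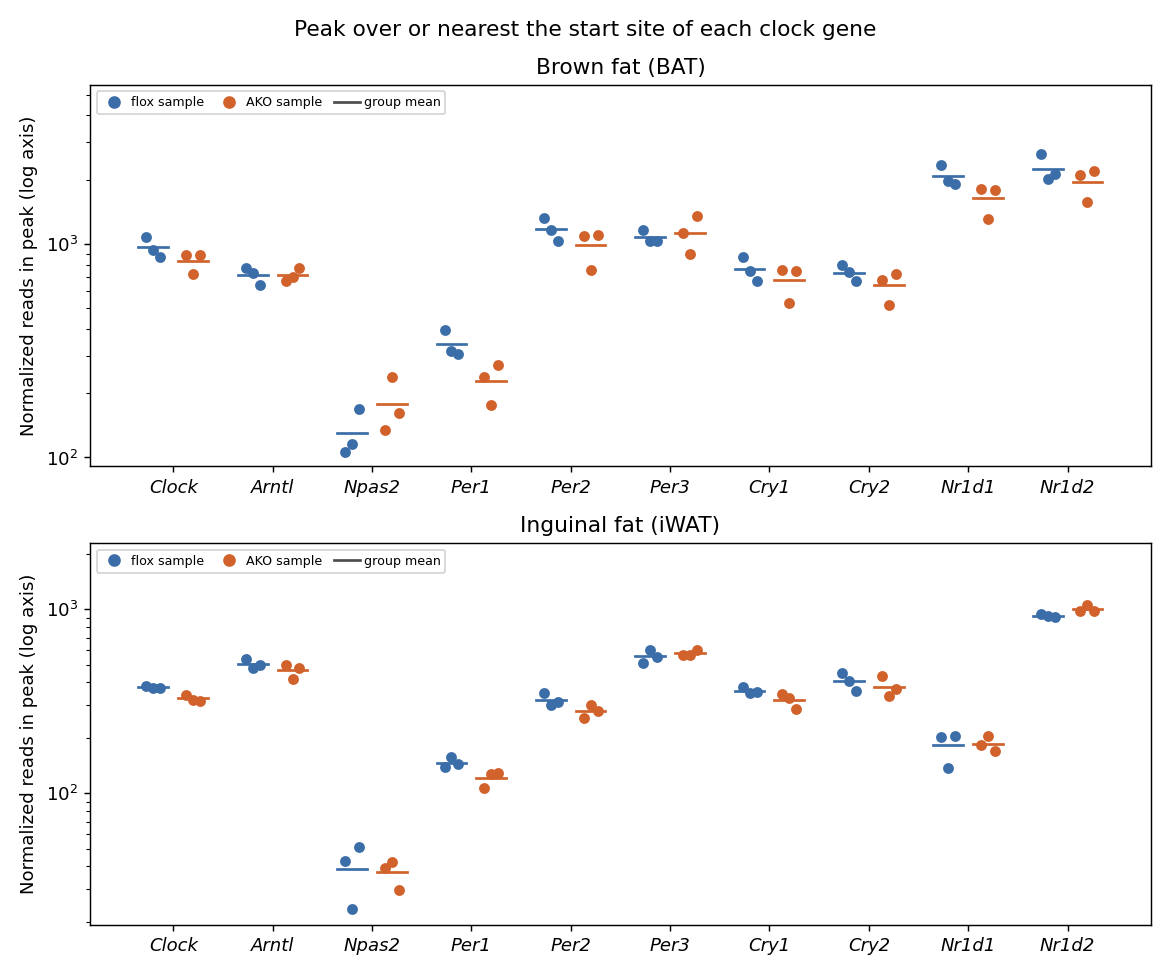
Normalized reads (log axis) in the peak over or nearest the start site of each clock gene, sample by sample, in brown fat (top) and iWAT (bottom), with flox in blue, AKO in orange and bars for group means. In brown fat the groups do not overlap at Per1 and Nr1d1, and in iWAT they do not overlap at Clock, Per1, Cry1 and Nr1d2.

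The period genes, whose products are inhibitors of the loop, gave the most one-sided picture at Per1. Per1 has several annotated starts, and its 4 brown fat peaks lie 3.9 kb or less from the principal one. Over the principal start (chr11:69098672-69099007) brown fat had 396, 314 and 307 normalized reads in flox and 238, 176 and 272 in AKO. Every AKO mouse lay below every flox mouse, and the fold change was -0.24 ± 0.20 (SE), adjusted p = 0.746, with a 95% interval of -0.70 to 0.22. At the peak 1.5 kb upstream (chr11:69097051-69097753) the values were 538, 491 and 459 normalized reads in flox and 386, 259 and 364 in AKO, again without overlap, with a fold change of -0.27 ± 0.18 (SE), adjusted p = 0.691. The peak in intron 1 of the principal transcript (chr11:69099939-69100241) holds 2 other annotated starts of Per1. It had 252, 183 and 182 normalized reads in flox and 151, 155 and 181 in AKO, the highest AKO mouse being just below the lowest flox mouse, and a fold change of -0.14 ± 0.22 (SE), adjusted p = 0.866. At the peak with a pair of E-boxes (chr11:69094694-69095341), which holds the most upstream annotated start, the values were 1130.2, 887 and 869 normalized reads in flox and 785, 562 and 874 in AKO, AKO 3 lay within the flox range and the fold change was -0.03 ± 0.19 (SE), adjusted p = 0.97. Without PC1 the 4 fold changes were -0.39, -0.58, -0.58 and -0.33 from the most upstream peak onward, with unadjusted p values of 0.117, 0.0227, 0.0298 and 0.142 and adjusted ones of 0.37 or more. Without PC1, limma had 3 of all 36 members lower at an unadjusted p under 0.05, which were the pair of Per1 peaks just given and Clock intron 2, and 0 higher, beside 4.37% and 7.57% of all peaks.

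In iWAT Per1 was lower in every AKO aliquot at its start site (chr11:69098670-69098954) only, with 138, 157 and 145 normalized reads in flox and 106, 128 and 129 in AKO and a fold change of -0.28 ± 0.14 (SE), adjusted p = 0.408. The groups overlapped at the other Per1 peaks, whose fold changes were -0.23 at -3914 bp, 0.06 at -1755 bp and -0.16 at 1067 bp. The peak at -1755 bp, which holds the CRE, was nearly alike in the flox aliquots, at 134, 132 and 134 normalized reads.

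**Figure D4:**
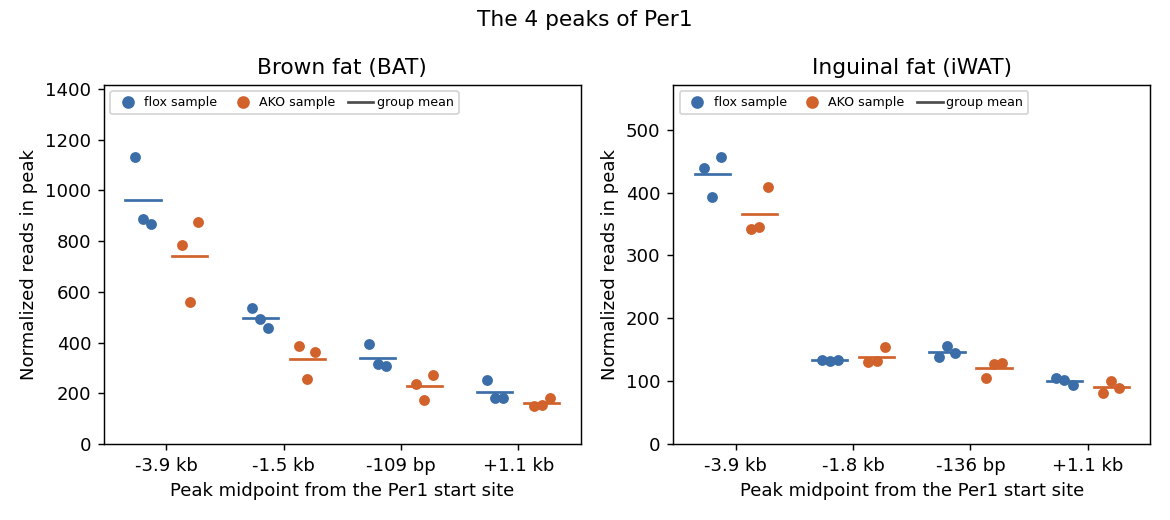
Normalized reads in the 4 Per1 peaks by sample, in brown fat (left) and iWAT (right), placed by distance of the peak midpoint from the principal start site, with flox in blue, AKO in orange and bars for group means. In brown fat every AKO mouse lies below every flox mouse at 3 of the 4 peaks, and in iWAT this holds at the start site alone.

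Per2 and Per3 overlapped between genotypes at their start sites. The brown fat Per2 start site (chr1:91457740-91459781) had 1324, 1162 and 1031 normalized reads in flox and 1094, 753 and 1104 in AKO, with AKO 2 well below the others, and a fold change of 0.08 ± 0.18 (SE), adjusted p = 0.907. Its intron 4 peak (chr1:91446013-91446799) had 463, 419 and 365 normalized reads in flox and 324, 326 and 367 in AKO, where AKO 3 reached just above the lowest flox mouse, and a fold change of -0.15 ± 0.19 (SE), adjusted p = 0.837. In iWAT the Per2 start site (chr1:91459031-91459767) had 349, 301 and 312 normalized reads in flox and 255, 303 and 278 in AKO, overlapping by 1 aliquot, and a fold change of -0.20 ± 0.14 (SE), adjusted p = 0.528. The intron 9 peak (chr1:91436292-91436962) was lower in every AKO aliquot, with 159, 146 and 159 normalized reads in flox and 113, 137 and 129 in AKO and a fold change of -0.29 ± 0.14 (SE), adjusted p = 0.368. The brown fat peak over the same intron had a fold change of -0.04 and overlapping groups. In brown fat, intron 1 of Per2 had a fold change of 0.02, and of -0.33 without PC1. The remaining iWAT peaks had fold changes of -0.34 in intron 4 and 0.01 and 0.30 in intron 1.

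Per3 had a single peak in each tissue, over its start site, in a region that the longer gene Camta1 on the same strand also spans. In brown fat (chr4:151043241-151045164) it had 1160.0, 1032 and 1035 normalized reads in flox and 1127, 892 and 1351 in AKO and a fold change of 0.29 ± 0.20 (SE), adjusted p = 0.708. In iWAT (chr4:151043309-151045103) it had 510.4, 601 and 550.0 normalized reads in flox and 565, 562 and 598 in AKO and a fold change of 0.06 ± 0.13 (SE), adjusted p = 0.875. The AKO values enclosed the flox values in brown fat and lay within them in iWAT.

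Cry1 and Cry2 encode the cryptochromes, the partners of PER in repression. Over the Cry1 start (chr10:85184414-85185678) brown fat had 866, 743 and 671 normalized reads in flox and 759, 531 and 748 in AKO, overlapping, with a fold change of 0.17 ± 0.17 (SE), adjusted p = 0.801. In iWAT (chr10:85184615-85185611) the values were 377, 351 and 355 normalized reads in flox and 347, 329.9 and 285 in AKO, lower in every AKO aliquot by a narrow margin, with a fold change of -0.18 ± 0.14 (SE), adjusted p = 0.583. The brown fat peak in intron 1 with a pair of RREs (chr10:85161796-85162054) had 45.5, 48.8 and 41.4 normalized reads in flox and 37.1, 38.6 and 74.8 in AKO, where AKO 3 alone was high, and a fold change of 0.26 ± 0.35 (SE), adjusted p = 0.846.

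Over the Cry2 start the groups overlapped in both tissues. Brown fat (chr2:92433670-92434474) had 794, 737 and 671 normalized reads in flox and 680.4, 518 and 725 in AKO and a fold change of 0.06 ± 0.18 (SE), adjusted p = 0.944, and iWAT (chr2:92433735-92434479) had 449, 409 and 359.8 normalized reads in flox and 433, 338 and 368 in AKO and a fold change of -0.10 ± 0.16 (SE), adjusted p = 0.806. The smallest p of Cry2 in brown fat was 9.5 kb upstream (chr2:92443348-92443680), with 97.2, 112 and 62.1 normalized reads in flox and 103, 79.2 and 131 in AKO. The groups overlapped there, and the fold change of 0.65 ± 0.27 (SE), adjusted p = 0.548, became 0.22 without PC1. The iWAT peak over the same place lay lower in every AKO aliquot, with 54.2, 66.7 and 68 normalized reads in flox and 49.6, 46.8 and 49.2 in AKO and a fold change of -0.36 ± 0.14 (SE), adjusted p = 0.296. The difference between the tissues was not tested.

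Every AKO aliquot lay above every flox aliquot at 2 other Cry2 peaks in iWAT. A further peak, 12.3 kb upstream and with few reads, had overlapping groups and a fold change of 0.74 ± 0.39 (SE), adjusted p = 0.415. The smallest p was 12.1 kb upstream (chr2:92446039-92446293), at a low signal, with 17.1, 18.9 and 18.9 normalized reads in flox and 35.7, 42.2 and 20.3 in AKO and a fold change of 0.75 ± 0.26 (SE), adjusted p = 0.25. At exon 5 (chr2:92421747-92422241) it had 147, 131 and 149.8 normalized reads in flox and 192, 188 and 169 in AKO, without overlap, and a fold change of 0.36 ± 0.13 (SE), adjusted p = 0.272. The exon 3 peak lay the other way, with a fold change of -0.19 ± 0.13 (SE), adjusted p = 0.52, and no overlap. These exon peaks and the one in intron 1 also lie in the antisense transcript D930015M05Rik, and accessibility has no strand, so the 2 genes cannot be told apart there. In brown fat intron 1 of Cry2 was lower in every AKO mouse, with 345, 305 and 375 normalized reads in flox and 297, 209 and 265 in AKO and a fold change of -0.28 ± 0.23 (SE), adjusted p = 0.745, while the same peak in iWAT had a fold change of 0.15 and overlapping groups.

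The REV-ERB genes had the most reads at their start sites in brown fat. The Nr1d1 start-site peak (chr11:98772915-98775688), which runs into intron 1 and holds 4 E-boxes, had 2339.9, 1973 and 1914 normalized reads in flox and 1803, 1311 and 1789 in AKO. Every AKO mouse lay below every flox mouse, and the fold change was -0.06 ± 0.18 (SE), adjusted p = 0.935, against -0.35 without PC1. In iWAT the same region was split into a start-site peak (chr11:98775101-98775633), with 203, 137 and 206 normalized reads in flox and 183, 206 and 169 in AKO and a fold change of 0.05 ± 0.19 (SE), adjusted p = 0.927, and an intron 1 peak with a fold change of -0.13. Flox 2 was the lowest sample at that start site, and the groups overlapped.

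The peak 8.1 kb upstream of Nr1d1 (chr11:98783217-98783683) had the smallest p of all iWAT members. Its values were 190.3, 220.1 and 206 normalized reads in flox and 146, 158 and 164 in AKO, lower in every AKO aliquot. The fold change in limma was -0.40 ± 0.13 (SE), adjusted p = 0.234, with an unadjusted p of 0.0179, a 95% interval of -0.70 to -0.09 and a range of -0.45 to -0.34 with each aliquot left out. The adjusted p was 0.0948 in edgeR, under the threshold, and 0.22 in DESeq2. The brown fat peak at the same place (chr11:98783202-98783733) had 499, 472 and 385 normalized reads in flox and 385, 361 and 486 in AKO, with overlapping groups and a fold change of 0.08 ± 0.20 (SE), adjusted p = 0.929, against -0.14 without PC1. The smallest p of Nr1d1 in brown fat was downstream (chr11:98765697-98766615), inside the neighbouring thyroid hormone receptor gene Thra, with 229, 220.2 and 255 normalized reads in flox and 257, 251 and 309.9 in AKO, overlapping, and a fold change of 0.22 ± 0.20 (SE), adjusted p = 0.776. The brown fat peak 1.9 kb upstream had 405, 371 and 312 normalized reads in flox and 253, 179.6 and 411 in AKO and a fold change of 0.01, which was -0.44 without PC1. The iWAT peaks inside Thra had fold changes of -0.29 and -0.15.

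Nr1d2 had the strongest start-site peak of the 10 genes in both tissues. Brown fat (chr14:18238167-18239645) had 2628, 2016 and 2119 normalized reads in flox and 2099.9, 1566 and 2204 in AKO, overlapping, with a fold change of 0.09 ± 0.19 (SE), adjusted p = 0.915. In iWAT (chr14:18238210-18239588) the values were 942, 917 and 902 normalized reads in flox and 972, 1048 and 979 in AKO, higher in every AKO aliquot, with a fold change of 0.12 ± 0.12 (SE), adjusted p = 0.687. The smallest p of Nr1d2 in brown fat was 67.8 kb past the start (chr14:18171139-18171505), with 67.4, 79.1 and 76.3 normalized reads in flox and 63.9, 104 and 64.3 in AKO. The groups overlapped, AKO 2 being the highest sample, with a fold change of -0.33 ± 0.21 (SE), adjusted p = 0.679, which turned to 0.03 without PC1. A brown fat peak 37.6 kb past the start had a fold change of 0.08, and of 0.60 at an unadjusted p of 0.0568 without PC1. The iWAT peak 37.5 kb past the start had a fold change of 0.16.

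At 7 of the 10 brown fat start sites the sign of the difference turned when PC1 was left out, and at Per1, Per3 and Nr1d1 it did not. With PC1 in the fit, 7 of the 10 member start-site peaks had a positive fold change, as did 7626 of the 10363 start-site peaks in the table, and without it 8 of 10 were negative, as were 6433 of 10363. The median of the 10 moved from 0.07 to -0.21, and that of all start-site peaks from 0.11 to -0.07. AKO 2 was the lowest sample at 8 of the 10 and at 52.8% of all start-site peaks, and flox 1 the highest at 8 of the 10 and at 51.1%. Only at Per1 and Nr1d1 were all AKO mice below all flox mice. Of all start-site peaks in brown fat, 6.41% were lower and 8.17% higher in every AKO mouse. In iWAT 3 member start sites were lower and 1 higher in every AKO aliquot, beside 9.98% and 8.87% of all start-site peaks. Over all 36 brown fat member peaks, 13 had the other sign without PC1. The median fold change of the 36 was 0.02 with PC1 and -0.17 without, beside 0.01 and -0.01 over all peaks of the table. In iWAT the median of the 35 peaks was -0.10 beside -0.00089 over all peaks, and 20 of 35 were negative beside 50.1% of all.

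**Figure D5:**
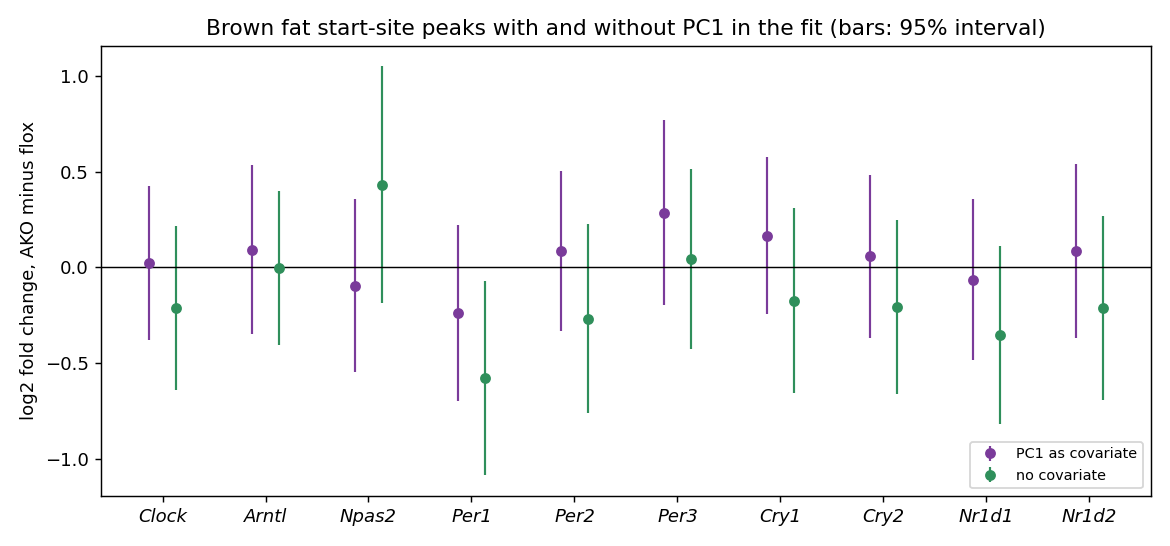
Brown fat log2 fold change, AKO minus flox, of the 10 start-site peaks from limma with PC1 as a covariate (purple) and without it (green), with 95% intervals. Leaving PC1 out lowers 9 of the 10 values and raises that of Npas2, and the interval excludes 0 only for Per1 without PC1.

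The 24 further genes of the clock and its outputs had 134 brown fat and 92 iWAT peaks, and none was called by limma in either tissue. They comprised the D-box factors Dbp, Tef, Hlf and Nfil3, the RRE activators Rora and Rorb, the E-box repressors Bhlhe40 and Bhlhe41, kinases and ubiquitin ligase subunits that act on PER and CRY, corepressors of REV-ERB and others. In brown fat 4 had an unadjusted p under 0.05 with a lower and 4 with a higher value in AKO, and every AKO mouse lay below flox at 17 (12.7%) and above at 8 (5.97%), 6 of these 8 at Rora. In iWAT 3 had such a p with a lower and 14 with a higher value, and every AKO aliquot lay below flox at 5 (5.43%) and above at 20 (21.7%). The shares for all peaks are those given above for each tissue. The 20 included 5 at Rora, 4 at Hlf and 3 at Usp2. edgeR called 5 of the 92 iWAT peaks, 1 lower and 4 higher.

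Among these further genes, a brown fat peak lay before Csnk1e, which encodes a kinase of the PER proteins (chr15:79466988-79467178), with 47.5, 40.6 and 31 normalized reads in flox and 59.8, 46.4 and 50.9 in AKO, overlapping, and a fold change of 0.72 ± 0.19 (SE), adjusted p = 0.449, against 0.40 without PC1. Intron 1 of Hlf (chr11:90389544-90389758) was lower in every AKO mouse, with 42.8, 55.4 and 76.3 normalized reads in flox and 42.3, 38.6 and 32.6 in AKO and a fold change of -0.86 ± 0.26 (SE), adjusted p = 0.48, against -0.58 without PC1. In iWAT a peak at chr9:69150298-69150521 lay inside the gene Rora, before the start of its principal transcript. It was higher in every AKO aliquot, with 10.7, 13.3 and 13.8 normalized reads in flox and 21.9, 22.8 and 38.5 in AKO and a fold change of 1.04 ± 0.23 (SE), adjusted p = 0.152. A peak before Nampt, whose product makes NAD for the clock's sirtuin arm (chr12:32795845-32796479), was lower in every AKO aliquot, with 53.5, 61.1 and 80 normalized reads in flox and 34.6, 38.8 and 39.6 in AKO and a fold change of -0.75 ± 0.18 (SE), adjusted p = 0.163. edgeR called the Nampt peak of iWAT, at an adjusted p of 0.0685, and not the one inside Rora, at 0.104.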

How the data were processed

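ATAC-seq was run on 12 samples, 3 flox and 3 AKO from brown fat and 3 flox and 3 AKO from cold-acclimated inguinal fat. Per the labels, each sample combines 2 transposase reactions. The authors trimmed 38-base paired reads, aligned them to mm10 with BWA 0.7.17-r1188, marked duplicates with Picard 2.8.14, kept alignments of mapping quality 30 or more, called broad peaks per sample with MACS2 2.1.1.20160309, retained those that 2 or more of a genotype's 3 replicates shared and counted reads per peak with bedtools 2.27.1 (versions as in the submitters' processing notes). The values count reads per peak and not single cut positions. The number of nuclei per reaction and the sequencer are described differently in the labels and the methods.

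The deposited signal values are these reads divided by a DESeq2 size factor per sample, and multiplying them back gave whole reads (within 0.001) for 100.0% of values. The authors' own comparison columns (deposited log2 fold changes with errors, test scores, p-values and adjusted p-values) were not used. The deposited columns were matched to samples by name, with 0 columns of sample values left unmapped. The distances, start sites, introns and exons given for peaks are those of each gene's principal transcript in GENCODE vM21. A deposited distance column, present for brown fat only, was not used for them and differs from them at some peaks.

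Each table was fitted alone, in R 4.3.3 with limma 3.58.1, on log2(normalized reads + 1), over all peaks and with no filter. PC1 was a covariate in brown fat only. Adjusted p-values are Benjamini-Hochberg over all peaks of a table, called at 0.1. The alternatives were edgeR 4.0.16 and DESeq2 1.42.0 on the recovered reads, other scalings, pseudocounts of 0.1 and 10, a minimum mean of 50 reads, a threshold of 0.05, PC1 left out or added, peaks within 10 kb of a start site, each sample left out and a replicate block. TMM scaling and the counts of non-overlapping peaks under other scalings or without brown fat AKO 2 or flox 1 were added after the data were seen. The fitting code was tested on simulated data. Motifs were searched with Python 3.11.15 and pysam 0.24.0, and figures were drawn with matplotlib 3.10.9.

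The members and lists were chosen with earlier results of these data known. The named-gene rule was to describe in full, for each member and tissue, the peak over or nearest the start site and the peak with the smallest p, and for the wider list any called peak and the 3 peaks with the smallest p in each tissue. Some results that this rule names are not reported here. Other peaks given with values by sample were chosen after their values were seen. No pair of replicates within a group agreed within sampling noise, so all were counted. Replicate p-values measure the spread between mice in brown fat and between aliquots of 1 pool in inguinal fat.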

Additional observations from a re-analysis of the deposited data

How the results depend on the processing

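The count of clock gene peaks called by limma stayed at 0 in both tissues under every alternative run with limma (scalings by TMM, total reads or cyclic loess, both pseudocounts, the filter, the 0.05 threshold, PC1 left out of brown fat or added in iWAT, peaks within 10 kb, and any 1 sample left out). It was also 0 with DESeq2 in both tissues and with edgeR in brown fat, and 1 with edgeR in iWAT. DESeq2 gave some members with few reads no adjusted p, so it could not call those. Of the 92 iWAT peaks of further clock genes, edgeR called 5 and the filter gave 1 (Nampt), against 0. Over all peaks, where limma called 0, DESeq2 called 174 in brown fat and 420 in iWAT, edgeR 84 and 1846, a pseudocount of 10 gave 1 in brown fat and the filter 314 in iWAT. The brown fat members higher in every AKO mouse numbered 2 without AKO 2 and 2 without flox 1, against 1. The members lower in every AKO mouse and both shares over all brown fat peaks, given above, rose as well.

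The median fold change of the brown fat members was -0.17 without PC1, against 0.02, and ran from -0.05 to 0.08 with each mouse left out. That of iWAT, -0.10, was -0.043 with PC1 as a covariate and -0.15 within 10 kb, and ran from -0.16 (without flox 2) to -0.023 (without flox 1). Leaving out PC1 in brown fat reversed 13 of the 36 member peaks. The 8 among the peaks described by the naming rule were -0.0029 at the start of Arntl, -0.21 at Clock, 0.43 at Npas2, -0.27 at Per2, -0.17 at Cry1, -0.21 at Cry2, -0.21 at Nr1d2 and 0.025 at its peak 67.8 kb away, and the 5 others were -0.22 before Arntl (5.7 kb), -0.33 in intron 1 of Per2, 0.026 before Cry2 (12.3 kb), and -0.44 and -0.14 before Nr1d1 (1.9 and 8.1 kb). In iWAT, where PC1 separates the genotypes and leaves little of the contrast to estimate, adding it reversed 18 of 35. Of these, 6 were described by the rule, with 0.63 at the start of Arntl, 0.60 at Per2, 0.15 at its intron 9, -0.31 at Per3, 0.66 at Cry2 and -2.92 at the peak 12.1 kb before it, and the other 12 took values from -4.15 to 2.33. Among the peaks described by the rule, other settings reversed the following. Cyclic loess gave -0.049 at the brown fat start of Clock, -0.0055 at Cry2 and -0.0083 at Nr1d2, and total reads gave -0.0068 at Clock. Leave-one-out ranges that crossed 0 were -0.033 to 0.24 (Arntl), -0.0027 to 0.047 (Clock), -0.16 to 0.0067 (Npas2), -0.0296 to 0.14 (Cry2), -0.11 to 0.0698 (Nr1d1) and -0.00057 to 0.27 (Nr1d2) at brown fat start sites, and -0.33 to 0.21 (Npas2), -0.29 to 0.057 (Npas2 upstream), -0.0017 to 0.12 (Per3) and -0.14 to 0.15 (Nr1d1) in iWAT. The cause of these shifts was not tested.

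With the replicate number as a block, 0 member peaks were called in either tissue and all 39 named peaks kept their direction. Deviations of same-numbered flox and AKO samples from their group means correlated at 0.494, 0.0632 and -0.236 in brown fat and at -0.0387, -0.0497 and -0.0566 in iWAT. Whether equal numbers mark paired samples cannot be decided from these values, since the deviations within a group sum to 0. The median peak held 70.0 to 226 reads per sample in brown fat and 62.0 to 98.0 in iWAT.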
